A study of Mus musculus with 10 samples.

Results

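The Hox genes are the 39 mouse genes whose symbol is Hoxa, Hoxb, Hoxc or Hoxd followed by a paralog number, chosen by symbol alone from the 35275 gene IDs in the counts. They were measured by RNA-seq of proximal intestine from 5 wild-type (WT) and 5 knockout (KO) mice of 8 to 10 weeks of age per the labels, and the gene disrupted in the KO mice was Slc39a14, which encodes the metal transporter ZIP14. The series title describes an enterocyte-specific deletion, the sample labels give only KO, and the study's methods describe a whole-body knockout for RNA-seq, so the mice are called KO here and the extent of the deletion cannot be settled from these sources. Per the methods, WT and whole-body KO mice were offspring of heterozygous parents of a single strain. Controls of the enterocyte-specific line were floxed (Zip14 F/F) mice, so the breeding of the sequenced mice is open as well. Each library was made from an individual mouse. The strain's name, the sex of each mouse and the exact length of gut sampled were not given per library. RNA came from tissue pieces that hold epithelium, muscle, nerve and blood cells.

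Hox genes encode homeodomain transcription factors that give cells along the head-to-tail axis their regional identity. They lie in clusters in which the order of the genes on the chromosome follows the order in which they are switched on along the body, so that genes with low paralog numbers (anterior) are active from further forward than genes with high numbers (posterior). In the gut, Hox genes are known mainly from the mesenchyme and nerve cells of the wall and less from the epithelium, and posterior members are best known in the distal gut. Paralogs with the same number in different clusters arose by duplication of the clusters and share much of their homeodomain sequence.

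On GRCm38 with GENCODE M21 gene models, the Hoxa cluster (11 genes, minus strand) lies on chromosome 6 and the Hoxb cluster (10 genes, plus strand) spans chr11:96194316-96368256. The Hoxc cluster (9 genes, plus strand) spans chr15:102921103-103036852 and the Hoxd cluster (9 genes, plus strand) spans chr2:74668310-74765142. Paralog groups 1 to 4 are called anterior here (12 genes), 5 to 8 central (11 genes) and 9 to 13 posterior (16 genes). RefSeq promoter sequences on GRCm38.p6 were at hand for 22 of the 39 genes, among them 4 of the 11 genes that differed between the groups, and these 4 are printed to show the DNA just before the start of genes from 3 clusters that were all higher in KO mice. Each run holds the 250 bases before the RefSeq start, 5′ to 3′ on the gene's strand, at chr11:96318017-96318266 (plus) for Hoxb4, chr11:96281655-96281904 (plus) for Hoxb8, chr6:52218574-52218823 (minus) for Hoxa7 and chr2:74704365-74704614 (plus) for Hoxd8. The Hoxa7 run lies inside the GENCODE M21 gene (chr6:52214491-52221854, minus), so its distances hold for the RefSeq start alone. Capitals mark TTTATG, a sequence of the kind bound by caudal-type factors such as CDX2, or AGGTCA, a core recognised by retinoic acid receptors, read on either strand.
Hoxb4: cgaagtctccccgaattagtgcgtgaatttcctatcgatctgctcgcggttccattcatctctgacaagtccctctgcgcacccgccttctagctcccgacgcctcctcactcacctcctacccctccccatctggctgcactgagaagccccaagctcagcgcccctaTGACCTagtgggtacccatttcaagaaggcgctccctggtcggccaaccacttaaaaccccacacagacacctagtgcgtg
Hoxb8: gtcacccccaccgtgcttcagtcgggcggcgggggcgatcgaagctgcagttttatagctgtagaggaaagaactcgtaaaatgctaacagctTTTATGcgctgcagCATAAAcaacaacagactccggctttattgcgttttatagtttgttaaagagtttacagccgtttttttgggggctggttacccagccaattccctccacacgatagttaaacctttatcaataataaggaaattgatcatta
Hoxa7: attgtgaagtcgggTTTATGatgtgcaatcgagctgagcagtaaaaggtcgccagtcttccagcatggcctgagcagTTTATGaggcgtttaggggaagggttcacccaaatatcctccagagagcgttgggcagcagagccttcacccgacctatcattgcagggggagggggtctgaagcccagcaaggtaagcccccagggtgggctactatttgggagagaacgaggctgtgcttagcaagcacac
Hoxd8: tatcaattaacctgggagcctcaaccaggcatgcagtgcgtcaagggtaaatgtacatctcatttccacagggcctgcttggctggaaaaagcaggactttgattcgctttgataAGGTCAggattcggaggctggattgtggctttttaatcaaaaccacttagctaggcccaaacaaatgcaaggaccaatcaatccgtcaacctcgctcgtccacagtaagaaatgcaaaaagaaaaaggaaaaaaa
Hoxb8 held TTTATG at 157 and, on the opposite strand, at 143 bases before the start, and Hoxa7 held it at 236 and 173 bases before the start. AGGTCA stood 81 bases before the start of Hoxb4, on the opposite strand, and 135 bases before that of Hoxd8. TTTATG was present in 5 of the 22 Hox genes with a promoter sequence (Hoxa7, Hoxb8, Hoxd3, Hoxd4 and Hoxd11) and in 10.8% of all 32851 promoters of the same length. AGGTCA was present in 6 (Hoxb4, Hoxc4, Hoxd3, Hoxd4, Hoxd8 and Hoxd10) and in 14.0% of all promoters, and TGATTNAT, which HOX proteins bind together with TALE partners, in 2 (Hoxa2 and Hoxd11) and in 2.82% of all. A match is only a run of letters, and no binding was measured.

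The libraries held 16729787 to 20819678 counts in WT and 17118742 to 19414828 in KO mice. Slc39a14 (chr14:70303469-70351425) was 190.6 to 356.4 CPM (counts scaled to 1000000 per library) in WT and 78.3 to 160.0 CPM in KO mice (log2 fold change -1.35, SE 0.22, edgeR adjusted p = 0.00184), and the groups did not overlap. KO replicate 1 was the highest of the KO libraries for this gene, the next being 93.6 CPM. The same library stood apart for the Hoxb genes described next, so those results are given with and without it. CPM here are scaled by edgeR's TMM factors, folds are KO over WT, and adjusted p-values cover all 15610 genes that passed the count filter. Of these, 2491 (16.0%) were higher and 2169 (13.9%) lower in KO mice at an adjusted p under 0.05. Without WT replicate 2 these shares were 10.3% and 9.9%, and with scaling by library size alone 3608 were higher and 1589 lower, the median log2 fold change of all genes moving from 0.03 to 0.15.

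Hox transcripts were few in WT intestine and more abundant in KO intestine. Summed over the 39 genes, WT replicates 1 to 5 had 617, 434, 703, 996 and 930 counts, and KO replicates 1 to 5 had 1075, 4577, 5252, 6833 and 6041. KO replicate 1 lay just above the highest WT library and far below the other 4 KO libraries. Of the 39 genes, 37 had at least 1 count and 18 passed the filter on low counts. Among those 18, 10 were higher in KO mice (Hoxa7, Hoxb3, Hoxb4, Hoxb5, Hoxb6, Hoxb7, Hoxb8, Hoxc6, Hoxc8 and Hoxd8), 1 was lower (Hoxa4), and 7 did not pass the test (Hoxa2, Hoxa3, Hoxa5, Hoxa9, Hoxb2, Hoxc4 and Hoxc5). The share called was 61.1% of the tested Hox genes and 29.9% of all tested genes, and the median log2 fold change was 1.32 for the Hox genes and 0.03 for all genes. Without KO replicate 1, 11 of these 18 genes were higher, Hoxc4 being added, beside 18.5% of all genes tested in that setting. Of the same 18 genes, edgeR with no filter had 10 higher and 1 lower, beside 8.63% and 8.08% of all genes, and DESeq2 had 11 higher and 1 lower, beside 16.3% and 14.5% of all genes. The 10 genes included 6 of the 7 tested in Hoxb, 2 of 4 in Hoxc, 1 of 6 in Hoxa and the 1 tested in Hoxd. By position they were 2 of 7 tested anterior, 8 of 10 tested central and 0 of 1 tested posterior genes. In bulk tissue, fewer cells of a type and less RNA per cell cannot be told apart, and this holds for every level given here.

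**Figure D1:**
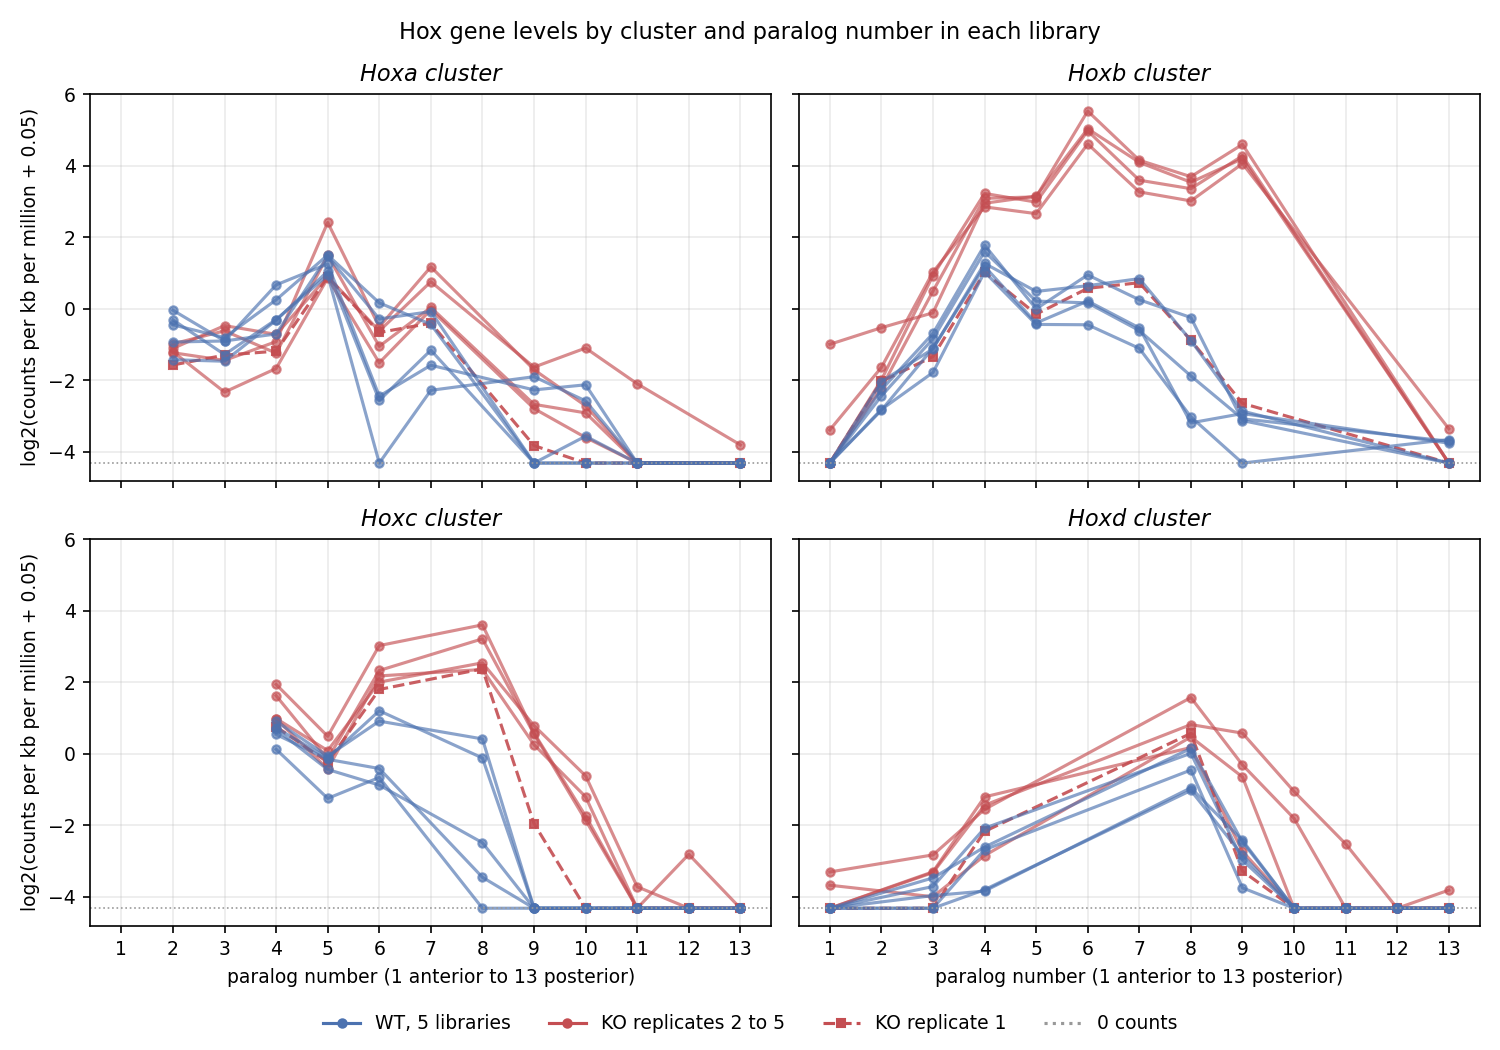
Level of Hox genes by paralog number in the 4 clusters, as log2 of CPM per kb of exon plus 0.05, with each line a library (WT blue, KO red, KO replicate 1 dashed with squares) and the dotted line at 0 counts. In the Hoxb panel 4 KO libraries run above the rest from Hoxb3 to Hoxb9 while KO replicate 1 runs with the 5 WT libraries.

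Among the genes that passed the filter, the Hoxb cluster held the 2 largest log2 fold changes, and within it those of Hoxb5 to Hoxb8 were larger than those of Hoxb2 to Hoxb4. Hoxb6, a central member known from the trunk, was at 2.18, 1.34, 2.10, 3.68 and 2.97 CPM in WT replicates 1 to 5 and at 2.81, 47.8, 61.7, 64.3 and 90.6 CPM in KO replicates 1 to 5. Its log2 fold change was 4.44 ± 0.70 (SE; edgeR adjusted p = 0.0016). The 4 highest KO libraries were all above every WT library, whereas KO replicate 1 fell within the WT range, so the groups overlapped. Hoxb8, another central gene, was at 0.156, 0.191, 0.583, 2.09 and 1.29 CPM in WT mice and at 1.29, 21.2, 26.9, 30.5 and 33.9 CPM in KO mice, with a log2 fold change of 4.71 ± 0.84 (edgeR adjusted p = 0.00291). Without WT replicate 4, the WT library with the most Hoxb8, that value was 5.32. Hoxb7 was at 0.985, 0.637, 0.932, 1.76 and 2.69 CPM in WT mice and at 2.48, 14.8, 18.6, 26.3 and 27.4 CPM in KO mice (log2 fold change 3.67 ± 0.60, edgeR adjusted p = 0.00187). For both genes KO replicate 1 again lay among the WT libraries and the other 4 KO libraries lay above all of them.

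Hoxb5, at the anterior edge of the central group, was at 1.97, 1.91, 3.09, 2.64 and 3.75 CPM in WT mice and at 2.36, 17.5, 21.9, 24.6 and 24.2 CPM in KO mice, a log2 fold change of 2.76 ± 0.50 (edgeR adjusted p = 0.00322). Hoxb5 is known for its part in the enteric nervous system. Hoxb4, an anterior gene and the most abundant Hoxb gene per kb in every WT library, was at 5.70, 5.10, 7.63, 8.67 and 6.04 CPM in WT mice and at 5.07, 18.3, 23.9, 19.7 and 21.7 CPM in KO mice (log2 fold change 1.42 ± 0.34, edgeR adjusted p = 0.0114). Hoxb3 was at 1.76, 1.02, 2.16, 2.42 and 1.74 CPM in WT mice and at 1.46, 8.42, 7.86, 3.71 and 5.76 CPM in KO mice (log2 fold change 1.58 ± 0.42, edgeR adjusted p = 0.0177). The rise of these genes was smaller than that of Hoxb6 to Hoxb8, although the differences between the genes' folds were not tested. Hoxb2, the most anterior Hoxb gene tested, ranged from 0.311 to 0.672 CPM in WT and from 0.576 to 2.24 CPM in KO mice, with a log2 fold change of 1.14 ± 0.43 that did not pass the test (edgeR adjusted p = 0.0645). It passed without KO replicate 5 (1.29, edgeR adjusted p = 0.0475), and without KO replicate 4, which held its highest value, it was 0.64 (edgeR adjusted p = 0.151).

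Hoxb9, the posterior gene next to Hoxb8, had 4, 0, 3, 3 and 4 counts in WT replicates 1 to 5 and 5, 818, 925, 990 and 1187 counts in KO replicates 1 to 5. It went from near absence to the second most abundant Hoxb gene per kb in the KO group mean, yet it failed the filter on low counts because KO replicate 1 had only 5 counts. An exact permutation test gave p = 0.00794 (2-sided, the smallest it can give) for a difference of 6.27 in mean log2 CPM, and in edgeR without a filter the log2 fold change was 7.92 ± 1.07 (adjusted p = 0.000492). The groups did not overlap, but KO replicate 1 exceeded the highest WT library by 1 count. Without KO replicate 1 the difference in mean log2 CPM was 7.67. At the ends of the cluster, Hoxb1 had 0 counts in every WT library and 24 in KO mice, 22 of them in KO replicate 4, and Hoxb13 had 3 counts in WT and 2 in KO mice. Both are too sparse for a comparison.

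Across the 7 tested Hoxb genes the log2 fold change and the paralog number had a Spearman rho of 0.93, with Hoxb4 below Hoxb3 and Hoxb7 below Hoxb6. In the fit without a filter it was 0.95 over the 8 Hoxb genes with at least 100 counts in all libraries together. That rule let Hoxb9 in through its KO counts and left out Hoxb1 (log2 fold change 5.14 in that fit) and Hoxb13 (-0.58). The 0.95 is therefore no added evidence. Genes of a cluster share libraries and are not independent, so the rho describes these 10 libraries and carries no p-value. Per kb of exon, the order of the WT means in Hoxb was Hoxb4 (2.58 ± 0.58 CPM per kb, SD, n = 5), Hoxb6 (1.25 ± 0.46), Hoxb5 (0.959 ± 0.28), Hoxb7 (0.907 ± 0.54), Hoxb3 (0.428 ± 0.12), Hoxb8 (0.327 ± 0.31) and Hoxb2 (0.133 ± 0.044). Among these, only Hoxb4 stood clear of the next gene by more than both SDs. In KO mice the order was Hoxb6 (27.2 ± 16.4), Hoxb9 (15.7 ± 9.16), Hoxb7 (11.6 ± 6.55), Hoxb8 (8.64 ± 4.89), Hoxb4 (6.91 ± 2.88), Hoxb5 (6.50 ± 3.32), Hoxb3 (1.28 ± 0.68) and Hoxb2 (0.294 ± 0.20). From Hoxb6 to Hoxb5 no neighbours differed by more than both SDs, while Hoxb5 exceeded Hoxb3, and Hoxb3 exceeded Hoxb2, by more than both. Hoxb4 was the top Hoxb gene in all 5 WT libraries and in KO replicate 1, and Hoxb6 was the top gene in the other 4 KO libraries.

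**Figure D2:**
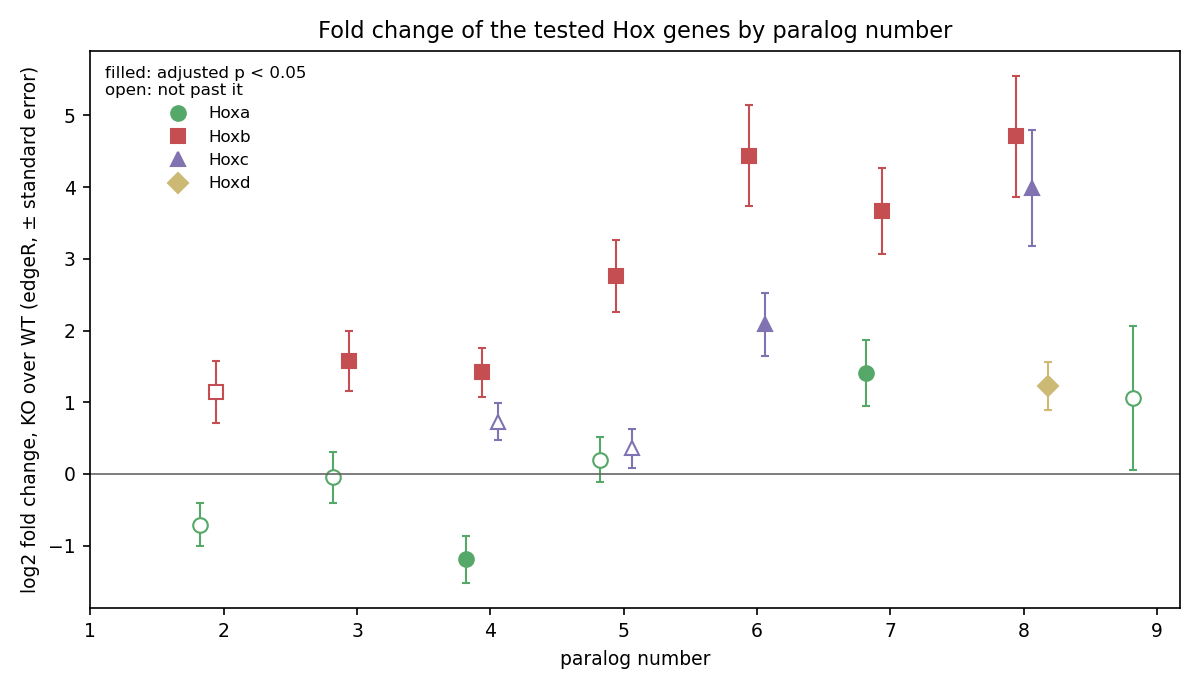
Log2 fold change (edgeR, KO over WT, bars showing the SE) of the 18 tested Hox genes against paralog number, with a colour and marker for each cluster, filled where the adjusted p was under 0.05. In Hoxb the values lie between 1.14 (Hoxb2) and 4.71 (Hoxb8), in Hoxc between 0.36 (Hoxc5) and 3.99 (Hoxc8) and in Hoxa between -1.19 (Hoxa4) and 1.41 (Hoxa7).

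In the Hoxc cluster the central genes Hoxc6 and Hoxc8 were higher in every KO library, KO replicate 1 included. Hoxc8 was at 0.363, 0, 0.117, 2.47 and 3.64 CPM in WT replicates 1 to 5 and at 14.6, 16.4, 26.2, 34.4 and 14.4 CPM in KO replicates 1 to 5. The groups did not overlap, and the log2 fold change was 3.99 ± 0.81 (edgeR adjusted p = 0.00511). It was 4.80 without WT replicate 5, since WT replicates 4 and 5 held nearly all of the WT counts. Hoxc6 was at 1.19, 1.40, 1.69, 5.43 and 4.42 CPM in WT mice and at 8.27, 9.57, 12, 19.5 and 10.8 CPM in KO mice (log2 fold change 2.09 ± 0.44, edgeR adjusted p = 0.0061), again with no overlap and with WT replicates 4 and 5 above the other WT libraries. Hoxc4 (2.68 to 4.70 CPM in WT, 4.22 to 9.75 in KO) had a log2 fold change of 0.73 ± 0.26 and missed the threshold (edgeR adjusted p = 0.0512), but passed it without KO replicate 1 (0.84, edgeR adjusted p = 0.0259), without KO replicate 5 (0.81, edgeR adjusted p = 0.0455) and with DESeq2 (0.71, adjusted p = 0.0291). Hoxc5 had a log2 fold change of 0.36 (edgeR adjusted p = 0.331).

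The posterior Hoxc genes were detected only in KO libraries at this depth. Hoxc9 had 0 counts in all 5 WT libraries and 9, 78, 64, 74 and 53 counts in KO replicates 1 to 5, which makes it at least 85.5-fold higher in KO mice when the WT group is set at 3 counts in all (exact permutation p = 0.00794, 2-sided). Every KO library was above every WT library, with KO replicate 1 the lowest of the 5. Hoxc10 had 0 counts in all WT libraries and in KO replicate 1 and had 22, 8, 10 and 14 counts in KO replicates 2 to 5, at least 16.6-fold higher as a group (exact permutation p = 0.0476, 2-sided). Hoxc11 had 1 count, Hoxc12 had 2 and Hoxc13 had 0 over all 10 libraries. Among the 19 Hox genes with counts that failed the filter, the 3 with an exact permutation p under 0.05 were Hoxb9, Hoxc9 and Hoxc10, all higher in KO mice, beside 4.9% of all 9587 genes below the filter. Over the 4 tested Hoxc genes the rho of fold against paralog number was 0.8, on the same terms as for Hoxb.

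In the Hoxa cluster 1 gene was higher, 1 was lower and 4 of the 6 tested did not pass, so that 33.3% were called beside 29.9% of all genes, with a median log2 fold change of 0.08. Fold against paralog number had a rho of 0.77 over these 6 genes. Hoxa4, an anterior gene, was at 1.19, 1.21, 2.45, 1.81 and 0.896 CPM in WT replicates 1 to 5 and at 0.619, 0.889, 0.592, 0.761 and 0.419 CPM in KO replicates 1 to 5. It was the only Hox gene called lower with all libraries (log2 fold change -1.19 ± 0.32, edgeR adjusted p = 0.0185), and the groups did not overlap, though the highest KO and the lowest WT library were nearly equal. Hoxa7, a central gene, was at 1.14, 0.446, 0.816, 1.98 and 2.58 CPM in WT mice and at 2.03, 4.70, 2.80, 6.32 and 2.67 CPM in KO mice, with a log2 fold change of 1.41 ± 0.46 (edgeR adjusted p = 0.0394). This call was lost when WT replicate 1, 2 or 3 or KO replicate 2, 3 or 4 was left out, with log2 fold changes of 1.34, 1.18, 1.26, 1.3, 1.49 and 1.13 and edgeR adjusted p-values of 0.0878, 0.0754, 0.0901, 0.073, 0.0512 and 0.09 in that order. Hoxa7 KO replicate 1 was below WT replicate 5, and the other 4 KO libraries were above all WT libraries.

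Hoxa5, which is needed for the development of gut and lung mesenchyme, was the most abundant Hoxa gene per kb in all 10 libraries. It was at 3.78, 3.50, 4.37, 5.21 and 5.09 CPM in WT mice and at 3.38, 3.40, 5.17, 9.89 and 3.30 CPM in KO mice. The log2 fold change of 0.20 did not pass the test (edgeR adjusted p = 0.657), and only KO replicate 4 was above the WT range. Hoxa2 (-0.71, edgeR adjusted p = 0.0949), Hoxa3 (-0.05, adjusted p = 0.932) and Hoxa9 (1.06 ± 1.0, adjusted p = 0.443) did not pass either, and Hoxa2 was past the threshold without WT replicate 1 (-0.88, edgeR adjusted p = 0.0437). The log2 fold change of Hoxa9, the posterior gene tested, ran from 0.71 to 1.96 when single libraries were left out. Hoxa9 was erratic within both groups, with 0, 19, 15, 0 and 0 counts in WT mice and 2, 29, 11, 30 and 10 in KO mice. Hoxa10 followed it, with 6 and 10 counts in WT replicates 2 and 3 and 26 in KO replicate 2 against 0 to 7 in the other libraries. Hoxa6 had at most 17 counts in any library, Hoxa11 had 8 counts and Hoxa13 had 1, all in KO replicate 2.

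In the Hoxd cluster only Hoxd8 passed the filter, and posterior genes were high in some KO libraries. Hoxd8, a central gene, was at 1.87, 1.21, 1.28, 2.63 and 2.91 CPM in WT mice and at 3.94, 4.70, 2.96, 8.04 and 3.67 CPM in KO mice, and was the most abundant Hoxd gene per kb in all 10 libraries. The groups did not overlap and the log2 fold change was 1.23 ± 0.33 (edgeR adjusted p = 0.0189). Hoxd9 had 17 counts over the WT libraries and 2, 59, 4, 34 and 24 counts in KO replicates 1 to 5, so that KO replicates 1 and 3 stayed in the WT range (exact permutation p = 0.103, 2-sided, and p = 0.0238 without KO replicate 1). Without a filter it was called higher by edgeR (log2 fold change 2.64 ± 0.77, adjusted p = 0.0332), as it was by DESeq2 (2.68, adjusted p = 0.00513). Posterior genes made up 49.2%, 22.8% and 28.7% of the Hoxd level per kb in KO replicates 2, 4 and 5, 3.17% and 6.24% in KO replicates 1 and 3 and 3.0 to 21.4% in WT libraries. Hoxd10 had 15 and 9 counts in KO replicates 2 and 4 and 0 elsewhere, and Hoxd11 had 10 counts in KO replicate 2 and 0 elsewhere. Hoxd1, Hoxd3, Hoxd12 and Hoxd13 had at most 8 counts in any library. Hoxd4 had at most 21 and an exact permutation p of 0.0556 (2-sided).

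Of the 37 Hox genes with counts, 5 were higher in every KO than in every WT library (Hoxb9, Hoxc6, Hoxc8, Hoxc9 and Hoxd8) and 1 was lower in every KO library (Hoxa4), beside 6.83% and 7.19% of all genes with a count. In 7 of the 10 genes called higher (Hoxa7 and Hoxb3 to Hoxb8) KO replicate 1 lay at or below the highest WT library and no other KO library did. Without it the log2 fold changes were 1.82 for Hoxb3, 1.65 for Hoxb4, 3.04 for Hoxb5, 4.74 for Hoxb6, 3.95 for Hoxb7 and 5.01 for Hoxb8, and Hoxc6 (2.19), Hoxc8 (4.10), Hoxd8 (1.28) and Hoxa4 (-1.17) moved little.

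**Figure D3:**
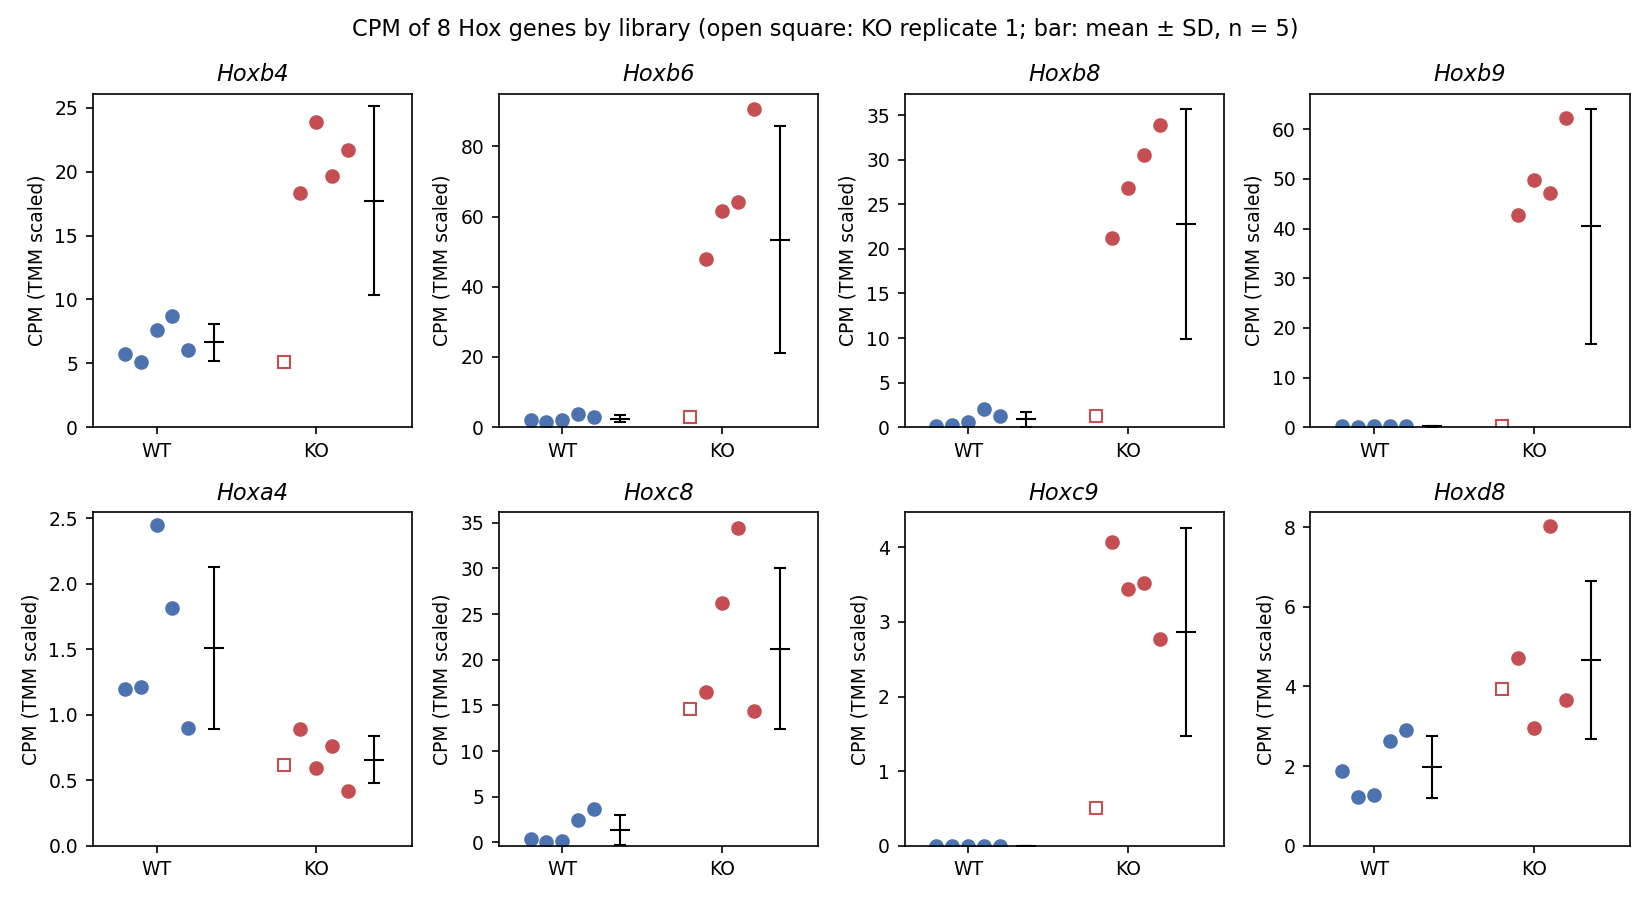
CPM of 8 Hox genes in each library (dots, WT blue and KO red, KO replicate 1 an open square), with the group mean ± SD (n = 5) as a bar beside them. For Hoxb6 the square sits at 2.81 CPM among the WT points while the other KO libraries reach 47.8 to 90.6 CPM, and for Hoxc8 it sits at 14.6 CPM, above the highest WT value of 3.64 CPM.

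The makeup of the Hox transcripts also differed. Added up per kb of exon, Hoxb genes made up 38 to 41.2% of the Hox level in WT libraries, 29.0% in KO replicate 1 and 70.4 to 85.8% in the other KO libraries. Hoxa genes made up 28.4 to 38.8%, 17.5% and 2.87 to 7.0% in the same order. Hoxc genes were the largest share in KO replicate 1, at 46.6%, beside 18.1 to 27.4% in WT and 9.84 to 19.5% in the other KO libraries. Hoxb6 was thus the most abundant Hox gene per kb in KO replicates 2 to 5 and Hoxc8 in KO replicate 1, whereas Hoxb4 led in WT replicates 1 to 4 and Hoxa5 in WT replicate 5. Shares add to a fixed total, so a larger Hoxb share makes the other shares smaller whatever their own level.

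Anterior genes gave 30.9 to 49.3% of the summed level in WT libraries, 22.5% in KO replicate 1 and 9.26 to 13.7% in the other KO libraries. Posterior genes gave 0.62 to 4.10% in WT, 1.62% in KO replicate 1 and 15.4 to 21.9% in the other KO libraries, most of it Hoxb9. By paralog group, group 9 was at 0.226 ± 0.108 CPM per kb in WT (SD, n = 5) and 17.6 ± 9.92 in KO mice, with KO replicate 1 at 0.391 and KO replicates 2 to 5 reaching up to 26.0. Group 6 was at 2.84 ± 1.72 in WT and 32.7 ± 17.2 in KO mice, group 7 at 1.39 ± 0.84 and 12.9 ± 6.86, and group 8 at 1.51 ± 1.12 and 17.8 ± 7.22. Group 2 showed no such gap, at 0.762 ± 0.24 in WT and 0.676 ± 0.21 in KO mice. Group 11 was at 0 in all WT libraries and above 0 in KO replicate 2 alone.

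The most posterior gene with at least 10 counts gives a limit of expression for each library. In Hoxb it was Hoxb7 in WT replicates 1 and 2, Hoxb8 in WT replicates 3 to 5 and in KO replicate 1, and Hoxb9 in KO replicates 2 to 5. In Hoxc it was Hoxc6 in WT replicates 1 to 3, Hoxc8 in WT replicates 4 and 5 and KO replicate 1, Hoxc9 in KO replicate 3 and Hoxc10 in KO replicates 2, 4 and 5. The limit thus lay further posterior in KO replicates 2 to 5 than in any WT library for both clusters. In Hoxd it was Hoxd8 in all WT libraries and KO replicates 1 and 3, Hoxd9 in KO replicates 4 and 5 and Hoxd11 in KO replicate 2. In Hoxa the limit varied within WT mice, from Hoxa7 to Hoxa10, and did not separate the groups. A floor of 10 counts depends on depth, but library totals differed by little between the groups.

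**Figure D4:**
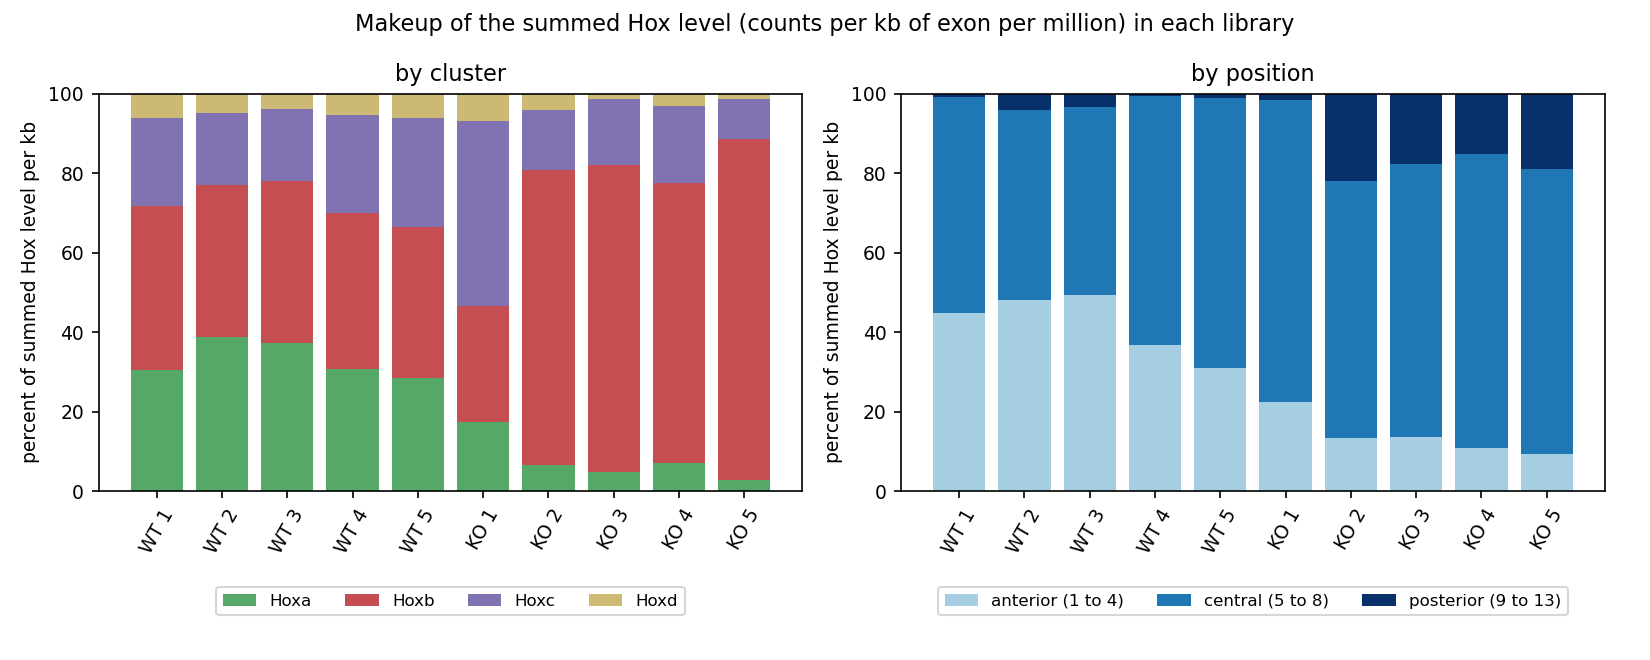
Share of the summed Hox level (CPM per kb) in each library by cluster and by position along the cluster, as stacked bars from 0 to 100%. The Hoxb share is 70.4 to 85.8% in KO replicates 2 to 5 against 38 to 41.2% in WT, and KO replicate 1 has the largest Hoxc share.

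Markers of gut region and of wall cells moved with the same groups, and their counts stand beside 16.0% of all genes called higher and 13.9% called lower. Of 8 ileum markers tested, 7 were higher in KO mice, with a summed level of 591.3 to 1409 CPM in WT and 4031 to 11170 CPM in KO mice. Fabp6, the ileal bile acid-binding protein, was at 0.0637 to 1.74 CPM in WT and 2299 to 9038 CPM in KO mice, with KO replicate 1 at 3292. Of 10 markers of proximal small intestine, 6 were lower and 1 higher, with a sum of 8566 to 15470 CPM in WT and 184 to 1410 CPM in KO mice, KO replicate 1 being the highest KO library. Gata4, a proximal transcription factor named after its values were seen, was at 160.1 to 216.5 CPM in WT and 0.571 to 59.3 CPM in KO mice, with KO replicate 1 the highest. WT replicates 4 and 5 had the lowest proximal sums (8566 and 9607 CPM) and the highest ileum sums (1052 and 1409 CPM) of the WT libraries. The proximal label was met by these markers in WT libraries as a group, while KO libraries had low proximal and high ileal markers. The part of these markers in the Hox results was not tested, and the position sampled and the genotype cannot be told apart.

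Smooth muscle markers were higher for 9 of 10 genes tested, beside 16.0% of all genes higher and 13.9% lower for this and the following lists, with sums of 1717 to 2836 CPM in WT and 3881 to 11410 CPM in KO mice. Enteric neuron and glia markers were higher for 10 of 10, with sums of 22.1 to 38.8 CPM in WT and 45.7 to 162.5 CPM in KO mice. KO replicate 1, whose Hoxb3 to Hoxb8 levels were at or below the highest WT library, had 4390 CPM of smooth muscle markers, above every WT library. Its neuron and glia sum of 45.7 CPM was the lowest of the KO libraries (62.8 to 162.5 CPM in the others). Markers of interstitial cells of Cajal were higher for 3 of 5 and fibroblast markers for 4 of 10, with none lower. Of 10 enterocyte markers 6 were lower, with sums of 31330 to 38080 CPM in WT and 15680 to 34320 CPM in KO mice, and KO replicate 1, at 34320 CPM, was inside the WT range while the other KO libraries reached at most 21120 CPM. None of 6 B and plasma cell and 6 T cell markers passed the edgeR test, 1 of 6 macrophage markers was lower, and 3 of 6 tested colon and cecum markers were higher and 1 lower. Of 6 pancreas markers 2 were tested and neither passed, and no stomach marker passed the filter. The part of these cells in the Hox results was not tested.

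Of the ParaHox genes, relatives of the Hox genes that include the caudal-type regulators of intestinal identity, Cdx1 and Cdx2 were higher in KO mice. Cdx2 was at a mean of 165.1 CPM in WT and 283.5 CPM in KO mice (log2 fold change 0.78, edgeR adjusted p = 0.00273) and Cdx1 at 96.7 and 182.4 CPM (0.92, edgeR adjusted p = 0.000243). For both, the groups did not overlap, and KO replicate 1 lay with the KO libraries, at 313.6 CPM for Cdx2, unlike for Hoxb. Pdx1, a proximal ParaHox gene that failed the filter, was at 1.14, 14.7, 6.23, 0.22 and 0.168 CPM in WT mice and at 0.105 to 0.571 CPM in KO mice (exact permutation p = 0.103, 2-sided), with WT replicates 4 and 5 inside the KO range. Cdx4, Gsx1 and Gsx2 had 0 counts. Of 9 TALE genes, whose proteins bind DNA together with HOX proteins, 5 were higher and none lower, beside 16.0% and 13.9% of all genes, among them Meis1 (log2 fold change 1.0), Meis2 (0.90), Meis3 (0.80) and Pbx3 (0.79). Their median of 0.79 stands beside 0.03 for all genes.

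**Figure D5:**
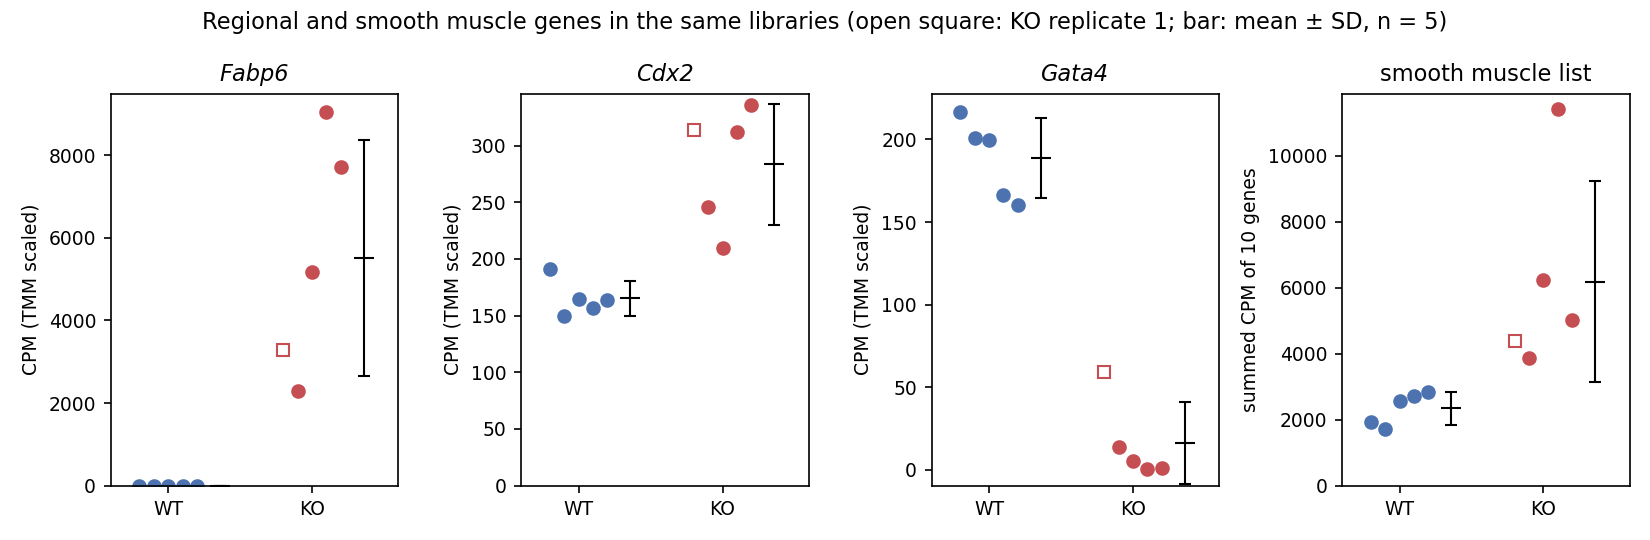
CPM of Fabp6, Cdx2 and Gata4 and summed CPM of the 10 smooth muscle markers in each library (WT blue, KO red, KO replicate 1 an open square), with the group mean ± SD (n = 5) as a bar. KO replicate 1 lies with the other KO libraries for Fabp6 (3292 CPM), Cdx2 (313.6 CPM) and smooth muscle (4390 CPM), and for Gata4 (59.3 CPM) it is the highest KO library and below every WT library.

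Of 13 tested protein-coding genes that flank the clusters, none was higher and 1 was lower (Mtx2, beside Hoxd, -0.41, edgeR adjusted p = 0.0362), beside 16.0% and 13.9% of all genes, with a median log2 fold change of -0.03. Ttll6, which flanks the clusters and was named after its values were seen, had a log2 fold change of 2.21 ± 0.81 and did not pass (edgeR adjusted p = 0.0606). It was at 0.674, 0.637, 0.991, 0.11 and 0.112 CPM in WT mice and at 0, 2.93, 2.91, 2.81 and 3.04 CPM in KO mice, so that, as for Hoxb3 to Hoxb8, KO replicates 2 to 5 were above every WT library and KO replicate 1 was not. Skap1 (log2 fold change 0.04), Snx11 (0.07) and Cbx1 (-0.08), also on this list, did not show that split. The likeness of Ttll6 to the Hoxb genes was not tested. The even-skipped genes at the cluster ends had 0 counts (Evx1) and 1 count (Evx2). Of 6 tested noncoding genes inside the clusters, 1 was higher, close to the 16.0% of all genes, namely Hoxb5os (3.10, edgeR adjusted p = 0.00405), with a median of -0.01, and its level in KO replicate 1 was 0.45 CPM. Hoxb5os lies on the other strand from Hoxb5 and overlaps 3.59% of its exon bases.

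Among 27 tested Polycomb and Trithorax genes, whose products keep Hox genes off or on, 4 were higher (Phf19 1.06, Cbx6 0.69, Cbx7 0.43 and Bmi1 0.33) and Kdm6b, a demethylase of the Polycomb mark, was lower (-0.58), so that 5 of 27 were called by edgeR beside 29.9% of all genes. Of 10 tested genes of retinoic acid, a signal that sets Hox expression limits in the embryo, the synthesis genes Aldh1a3 (-1.89), Aldh1a2 (-1.08), Aldh1a1 (-1.02) and Rdh10 (-0.69) were lower and the receptor gene Rarg was higher (0.79), 5 of 10 called beside the same 29.9%. Both lists had a median of -0.07.

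Some Hox genes share exons with neighbours, and since the counting program and its use of strand were not given, such counts are uncertain. On GENCODE M21, 9 of the 39 genes overlap exons of another gene on the same strand and 10 on the other strand. Hoxd3 and Hoxd4 overlap each other and Gm28230, a predicted gene, over 62.4% and 52.3% of their own exon bases, and Hoxb3 is covered over 52.9% by the antisense gene Hoxb3os. Hoxa3, Hoxb2 and Hoxa11 are covered over 25.4%, 27.3% and 35.0% on the other strand. The called genes Hoxa7 and Hoxa4 are covered there over 20.4% and 16.0%. Hoxb6, Hoxb7, Hoxb8, Hoxb9, Hoxc6, Hoxc8, Hoxc9 and Hoxd8 overlap no exon of another gene on either strand.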

How the data were processed

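RNA was extracted from proximal intestine of 5 WT and 5 KO mice, and polyadenylated RNA was made into libraries with the SMARTER kit and sequenced on an Illumina NovaSeq. Per the submitters' processing notes, reads were checked with FastQC 0.11.9, trimmed with Trimmomatic and aligned to GRCm38 (mm10) with HISAT2 2.0.4, with SAMtools 1.3.1 and DESeq2 1.14.1 also named. The authors deposited raw counts per Ensembl gene ID for each library, and the counting program, annotation and strand setting were not given in the labels or methods. Of the 35275 IDs, 34490 were matched to a symbol through GENCODE M21, which also gave exon lengths for counts per kb.

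All groups came from the sample titles. Counts were tested in R 4.3.3 with edgeR 4.0.16 (quasi-likelihood test, TMM, filterByExpr with a minimum count of 10 and a total of 15, Benjamini-Hochberg over all tested genes, threshold 0.05). SEs were the fold divided by the square root of F. Hox genes below the filter were compared by an exact permutation test of mean log2 CPM (prior count 2). p-values measure the spread between individual mice. The code was tested on simulated data. The alternatives were RLE factors, library size only, no filter, a mean of at least 10 counts, DESeq2 1.42.0, a replicate block, a prior count of 0.5 and leaving out each library.

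The Hox genes and all lists were chosen with earlier results of these data known. Named were Hox genes called or not overlapping, the top gene of each cluster, called members of related lists (at most 4 of each by size of fold, with all 5 of the retinoic acid genes and Kdm6b named beyond that rule after their values were seen), the ParaHox genes, Slc39a14 and Fabp6. Gata4, Car1, Ttll6 and sparse Hox genes were named after their values were seen. Promoters came from RefSeq on GRCm38.p6. Counting floors (3 counts over a group) cover counting error only. Some genes are not reported here. No values of the study's own comparisons were used.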

Additional observations from a re-analysis of the deposited data

Results flagged for a closer look

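In 49 groups of 5 libraries with at least 10 counts, the highest or lowest log2 CPM of a Hox gene was set against the others by Dixon's criterion, and 9 met it. Chance meets it in about 1 in 20 groups of normally distributed values. A group with counts in a single library meets it by construction, so that rate does not hold for sparse genes. In 7 of these the library that stood apart was KO replicate 1, lowest of the KO libraries. Its log2 CPM was 2.37 for Hoxb4 (90 counts against 351 to 443 in the other KO libraries), 1.31 for Hoxb5 (42 against 334 to 517), 1.55 for Hoxb6 (50 against 915 to 1729) and 1.37 for Hoxb7 (44 against 283 to 553). It was 0.49 for Hoxb8 (23 against 405 to 648), -1.36 for Hoxb9 (5 against 818 to 1187) and -0.70 for Hoxc9 (9 against 53 to 78). These genes share a library, so the 7 are not separate events. The other 2 were sparse genes with a single high library, Hoxb1 in KO replicate 4 (log2 CPM 0.21, 22 counts against 0 to 2) and Hoxd11 in KO replicate 2 (-0.66, 10 counts against 0). The causes were not tested.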

How the results depend on the processing

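The count of Hox genes called higher was 10 of 18 with RLE factors and 12 of 18 with library size only, beside 15.4% and 23.1% of all genes. It was 14 of 37 with no filter, 13 of 21 with a mean of at least 10 counts and 15 of 26 with DESeq2, beside 8.6%, 16.1% and 16.3%. When single libraries were left out it ran from 9 to 13, beside 10.3% to 18.5% of all genes. Some of these genes entered the test through their KO counts alone, which makes the larger counts no added evidence. They were Hoxb9 and Hoxc9 without KO replicate 1, these and Hoxd9 with the mean of at least 10 counts, and these 3 and Hoxc10 with DESeq2. With no filter they were Hoxc9 and Hoxc10, while Hoxb9 and Hoxd9 had 14 and 17 WT counts. Of the 18 genes tested with all libraries, 9, 9, 9, 10 and 10 were higher without WT replicates 1 to 5. Among all Hox genes tested in those settings 11, 11, 11, 12 and 12 were higher, and the genes added are no added evidence either. The count called lower was 1 in every setting with all libraries, beside 8.1% to 14.5% of all genes. It was 1 to 2 when single libraries were left out, beside 9.9% to 16.1% of all genes. Over every gene, calls ran from 1634 (without WT replicate 2) to 2944 higher and from 1573 to 2563 lower on leaving out a library. Of 288 log2 fold changes of the 18 tested genes under alternatives, 267 kept their direction and side of the threshold, 8 lost it, 7 gained it and 6 changed sign, and 9 of the 11 called genes passed under every alternative, the exceptions being Hoxa7 and Hoxb3. Hoxa3 changed sign with library size only (0.09), without WT replicate 4 (0.01), without KO replicate 1 (0.00), without KO replicate 4 (0.04) and without KO replicate 5 (0.17), its range on leaving out a library being -0.29 to 0.17, and Hoxa5 without KO replicate 4 (-0.20, range -0.20 to 0.32). Hoxb2 (1.28, edgeR adjusted p = 0.0482) and Hoxc4 (0.87, edgeR adjusted p = 0.0348) passed with library size only. Hoxd4 passed the exact permutation test without WT replicate 4 (p = 0.0317) or KO replicate 5 (p = 0.0238). The causes were not tested.

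Libraries with the same replicate number shared only a number, since the correlations of their deviations from group means ran from -0.167 to 0.177 and 2 of 10 libraries correlated best with their own number. With the replicate number as a block, 8 Hox genes were higher and 1 lower, Hoxa7 (1.46, edgeR adjusted p = 0.0519) and Hoxb3 (1.40, edgeR adjusted p = 0.0612) missing the threshold, and 1950 genes in all were higher and 1898 lower.

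Depth limits the sparse genes most. A gene at 0 counts in a library of these totals may still be present below 3 counts, and 13 of the 21 untested Hox genes had 30 counts or fewer in all 10 libraries together, 2 of them none.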

Other observations

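The KO libraries also differed among themselves at the posterior end of the clusters. KO replicate 2 held all 8 counts of Hoxa11, all 10 of Hoxd11, the single counts of Hoxa13, Hoxc11 and Hoxd13, and the most Hoxc10 (22) and Hoxd10 (15). The same library had 1167 CPM of Car1, a carbonic anhydrase of colon and cecum, which was at 0 in every WT library and in KO replicates 1 and 5 and at 0.539 and 11.3 CPM in KO replicates 3 and 4. Among WT libraries, replicates 4 and 5 had 45 and 65 counts of Hoxc8 against 0 to 7 in the other 3, 99 and 79 counts of Hoxc6 against 22 to 29, and 17 and 12 counts of Hoxa6 against 0 to 2. The same libraries had the lowest proximal and the highest ileum marker sums of the WT group. These are values of single mice and were not tested.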
